A study of Homo sapiens with 6 samples.

Results

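CHAC1 and 9 other genes of cystine uptake, glutathione metabolism and ferroptosis were examined in PANC-1 cells after METTL16 silencing. The 10 genes, chosen by name, were CHAC1, SLC7A11, SLC3A2, GCLC, GCLM, GSS, GSR, GPX4, ACSL4 and AIFM2, out of 58735 genes in the expression table. All 10 were found and all 10 had enough counts to be tested, among 15089 tested genes. CHAC1 and SLC7A11 were taken because their levels fell in this same comparison, so their changes are given as a description with no test. The other 8 genes complete the pathway around that pair.

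The RNA-seq data came from PANC-1, an established human pancreatic ductal adenocarcinoma line grown in DMEM with fetal bovine serum. In total, 3 samples were transfected with control siRNA (si-NC) and 3 with siRNA against METTL16 (si-METTL16), and a further label of the si-NC samples calls them WT. The methods of the study call the sequenced cells stably transfected and the replicates biological, whereas the labels name only siRNA transfection, so how long METTL16 had been silenced is uncertain. The study lists several siRNA sequences against METTL16 and does not say which of them the sequenced cells received. The samples of both groups are the same cell line. Total counts ranged from 15725298 to 18054436 per sample, and 3 counts corresponded to 0.166 to 0.191 CPM, a count relative to its library. The CPM of genes below include TMM scaling, and levels per gene length are the deposited FPKM, in which the count is divided by the gene length and the library total. KRT8, KRT18 and vimentin, which PANC-1 cells express, were high. The 6 epithelial markers summed to between 2855 and 3928 CPM in si-NC and between 3109 and 3401 CPM in si-METTL16 samples. Most of this sum was KRT8 and KRT18, with si-NC means of 2139 and 1146 CPM. The si-NC means of KRT19, CDH1, EPCAM and KRT7 were 191, 23.8, 7.75 and 6.55 CPM. The acinar, endocrine and endothelial lists each summed to less than 1 CPM in every sample, and PTPRC, the general leukocyte antigen, stayed between 0 and 0.296 CPM. The 4 leukocyte markers summed to 5.74 to 5.83 CPM in si-NC and to 7.79 to 9.45 CPM in si-METTL16 samples, nearly all of it CD68, a lysosomal protein that other cells also make. Within the epithelial list KRT19 (log2 fold change −1.40), CDH1 (−1.09) and KRT7 (−0.84) fell while the other 3 did not pass the test, and of the 3 mesenchymal markers CDH2 rose (0.93). The part of these marker changes in the results for the 10 genes was not tested, and in bulk RNA fewer cells of a type and less RNA per cell cannot be told apart.

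Glutathione is the main thiol antioxidant of the cell. Its cysteine comes largely from cystine, which system xc-, made of SLC7A11 and SLC3A2, imports in exchange for glutamate. Glutamate-cysteine ligase (GCLC with GCLM) and then glutathione synthetase (GSS) build the tripeptide, and CHAC1 degrades it in the cytosol. GPX4, a selenoprotein, uses glutathione to reduce lipid hydroperoxides and GSR regenerates the reduced form. Ferroptosis is the iron-dependent death that follows when lipid peroxides accumulate. ACSL4 supplies the polyunsaturated lipids that are peroxidised, and AIFM2 (also called FSP1) protects membranes independently of glutathione by reducing coenzyme Q. Pancreatic ductal adenocarcinoma cells are known to depend on cystine import.

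METTL16, an RNA N6-methyladenosine methyltransferase, was measured first because it was the target. Its level was 91.5, 96.7 and 101 CPM in the si-NC samples and 34.8, 33.9 and 34.9 CPM in the si-METTL16 samples. The log2 fold change was −1.48 (95% interval −1.64 to −1.32; adjusted p = 8.34e-05 by the quasi-likelihood test of edgeR, adjusted by Benjamini-Hochberg), and the groups did not overlap. MAT2A, the S-adenosylmethionine synthetase transcript that METTL16 is known to methylate, fell by 0.74 on the log2 scale (adjusted p = 0.000756 by the same test). Under this test 35.9% of all tested genes were called at an adjusted p under 0.05, with 18.4% higher and 17.5% lower in si-METTL16. The median log2 fold change of all tested genes was −0.0045 and the median of its size without sign was 0.33. In 50.9% of tested genes the groups did not overlap in CPM.

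Against this background, 5 of the 8 genes other than CHAC1 and SLC7A11 were called (62.5%), with GSS, GSR, GPX4 and AIFM2 lower and ACSL4 higher, and with a median log2 fold change of −0.21. The calls of ACSL4 and AIFM2 were each lost in 4 of the 6 fits that left out 1 sample. Without si-NC replicate 1, without si-NC replicate 3 or without si-METTL16 replicate 2, 3 of the 8 genes were called. The same 5 genes were those of the 8 whose groups did not overlap.

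**Figure D1:**
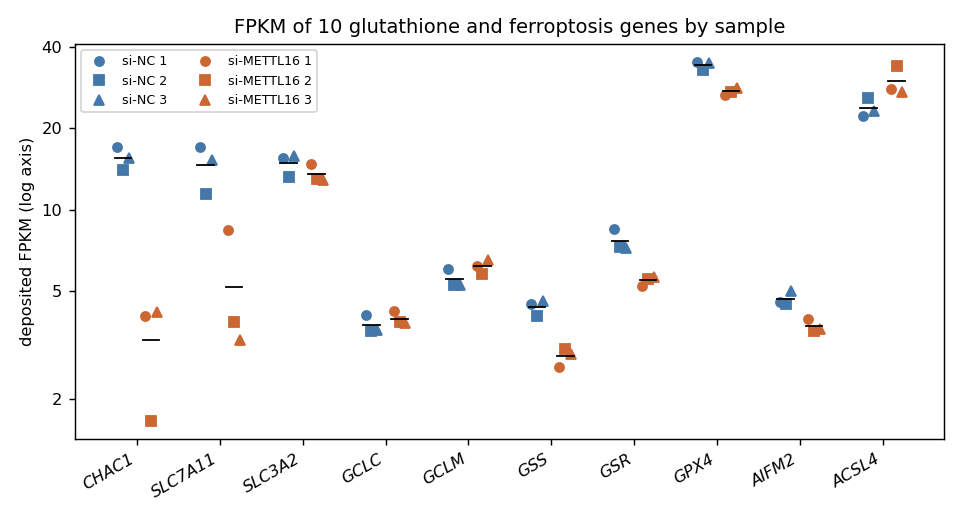
Deposited FPKM (vertical log axis) of the 10 genes in each of the 6 samples, with blue for si-NC, orange for si-METTL16, a marker shape for each replicate number and a black bar at the group mean. CHAC1 and SLC7A11 show the widest separation and the widest spread among the si-METTL16 samples, while the points of SLC3A2, GCLC and GCLM overlap between groups.

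**Figure D2:**
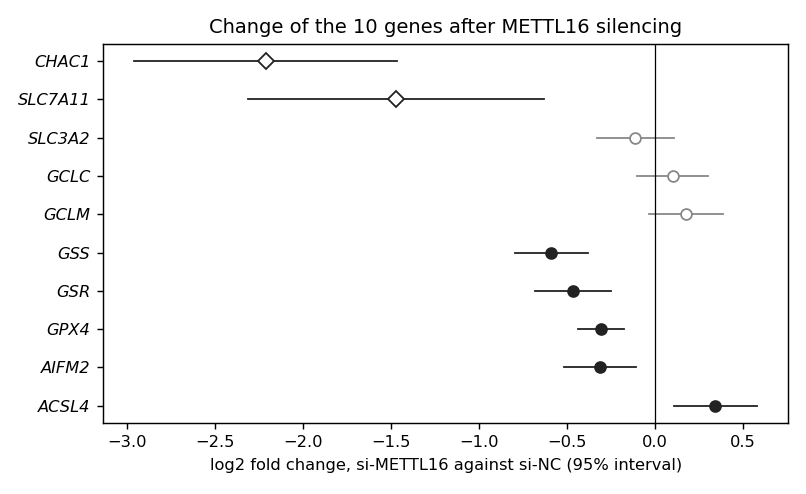
Log2 fold change of each gene in si-METTL16 against si-NC samples (horizontal axis) with its 95% interval from edgeR's quasi-likelihood fit. Filled circles mark genes with an adjusted p under 0.05 and open circles genes that did not pass. Open diamonds mark CHAC1 and SLC7A11, which were taken for their fall and are shown without a test. Their intervals take no account of that choice.

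CHAC1 and SLC3A2 are among the genes known to be induced by ATF4, the transcription factor of the amino acid and stress response. GCLM and AIFM2 are among the known targets of the oxidant-responsive factor NRF2. Only genes that held a core in the search below are named here, so the matches are no check of these statements. This naming is no full list of the known targets among the 10 genes. It says nothing against SLC7A11, which had no promoter sequence to search, or GCLC, whose sequence held neither core. The stretches of promoter that carry the recognition cores of these factors are shown. The promoter windows were those of RefSeq on GRCh38.p14, from 250 bases before to 50 bases after a start, and 7 of the 10 genes had a window. SLC7A11, GSS and GSR had none. The core of the ATF4–C/EBP element, TGATGNAA, was searched on both strands and was present in 3.62% of all 35116 windows and in at least 1 window of 4.46% of all 27305 genes. It was found in 2 of the 7 genes, CHAC1 and SLC3A2. ASNS and ATF3, the 2 genes with the core among 9 stress-response genes of the ATF4 list that had a window, are shown beside them. Capitals mark the core, which is on the reverse strand in CHAC1 and SLC3A2.
CHAC1 (chr15:40953251-40953280, plus strand): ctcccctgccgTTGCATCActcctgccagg
SLC3A2 (chr11:62881719-62881748, plus strand): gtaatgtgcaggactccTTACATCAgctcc
ASNS (chr7:97872458-97872487, minus strand): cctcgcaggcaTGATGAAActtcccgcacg
ATF3 (chr1:212565205-212565234, plus strand): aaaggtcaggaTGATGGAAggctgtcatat

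The CHAC1 core lay at −209 to −202 from the RefSeq start, outside 2 GENCODE v44 transcripts of the gene and in a noncoding part of an exon of 1 longer transcript. The SLC3A2 core lay at 38 to 45, inside an intron of 27 of its annotated transcripts and in a coding exon of 2. The ASNS and ATF3 cores lay at −68 to −61 and at −191 to −184. CHAC1 was the lowest of the 10 genes in log2 fold change, and SLC3A2 (−0.11), ASNS (−0.55) and ATF3 (−0.08) did not pass the test. A match is a description of the letters and not evidence of binding.

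The antioxidant response core TGACNNNGC, also searched on both strands, was present in 13.3% of windows and in 16.1% of genes with a window, and it was found in 3 of the 7 genes. Capitals again mark the core, which is on the reverse strand in GCLM and AIFM2.
SLC3A2 (chr11:62881652-62881681, plus strand): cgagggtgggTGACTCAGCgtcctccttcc
GCLM (chr1:93909445-93909474, minus strand): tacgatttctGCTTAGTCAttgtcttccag
AIFM2 (chr10:70132828-70132857, minus strand): cagcacgagtGCTGAGTCAcgccccgcccg

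These cores lay at −37 to −29 in SLC3A2, at −34 to −26 in GCLM and at −22 to −14 in AIFM2. SLC3A2 had 3 windows and 1 match. Its printed stretch lay inside an intron of 25 annotated transcripts and outside 16. The GCLM stretch crossed an exon edge of 1 transcript and lay outside 3. The AIFM2 stretch was in a noncoding part of an exon of 1 transcript and outside 3. Of the 3 genes, only AIFM2 was called, and it fell. The windows of GCLC, GPX4 and ACSL4 held neither core in these letters.

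METTL16 is known to methylate the sequence UACAGAGAA in hairpins of MAT2A. In the annotated canonical transcripts of GENCODE v44, MAT2A held 5 copies on the sense strand, all in its 3′ UTR, and the 10 genes held 0. Of 12662 canonical transcripts of tested genes, 494 (3.9%) held at least 1 copy. The absence of these letters says nothing of other sequences that METTL16 may bind.

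CHAC1, the glutathione-specific γ-glutamylcyclotransferase that is induced with amino acid stress, was at 1500, 1230 and 1410 counts in si-NC samples and at 351, 136 and 394 counts in si-METTL16 samples. The gene (ENSG00000128965) is at chromosome 15, 40952962 to 40956519, on the GRCh38 coordinates of the deposited table. Per length, these counts were 17.1, 14.0 and 15.5 FPKM against 4.04, 1.66 and 4.18 FPKM. Every si-METTL16 sample was below every si-NC sample, and replicate 2 was the lowest by far. The mean FPKM went from 15.5 ± 1.57 (SD, n = 3) to 3.29 ± 1.42 (SD, n = 3). The log2 fold change was −2.21 (95% interval −2.96 to −1.46), which is 21.6% of the control level, and CHAC1 ranked 47 from the lowest among the log2 fold changes of all tested genes. The interval takes no account of the choice of CHAC1 for its fall, so it serves as no test. Leaving out any 1 sample moved the log2 fold change between −2.42 and −1.90. CHAC2, the constitutive paralog of CHAC1, did not pass the test at 18.3, 17.6 and 20.4 CPM against 17.7, 19.2 and 19.7 CPM (log2 fold change 0.01, 95% interval −0.23 to 0.25).

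SLC7A11 (ENSG00000151012; chromosome 4, 138164097 to 138242349), the transport subunit of system xc-, was at 2837, 1895 and 2631 counts in si-NC and at 1380, 594 and 587 counts in si-METTL16 samples. Per length it was at 17.1, 11.4 and 15.3 FPKM against 8.40, 3.83 and 3.30 FPKM. The groups did not overlap, and si-METTL16 replicate 1 remained well above the other two silenced samples. The log2 fold change was −1.47 (95% interval −2.31 to −0.63) and lay between −2.02 and −1.23 in the fits that left out 1 sample. The value of −2.02 came from the fit without si-METTL16 replicate 1. As for CHAC1, the interval takes no account of the choice of the gene for its fall. An annotated antisense gene, SLC7A11-AS1, overlaps SLC7A11 by 14081 bases and had 0 counts over all samples.

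SLC3A2 (ENSG00000168003; chromosome 11, 62856102 to 62888875), the heavy chain that carries SLC7A11 and several other amino acid transporters to the membrane, did not follow its partner. It was at 15.6, 13.2 and 15.8 FPKM in si-NC and at 14.8, 13.0 and 12.9 FPKM in si-METTL16 samples, and the groups overlapped. Its log2 fold change was −0.11 (95% interval −0.33 to 0.11; adjusted p = 0.382, edgeR's quasi-likelihood test). The ratio of SLC7A11 to SLC3A2 in FPKM was 1.10, 0.865 and 0.969 in si-NC samples and 0.570, 0.296 and 0.256 in si-METTL16 samples. On the log2 scale the mean ratio went from −0.04 ± 0.17 (SD, n = 3) to −1.51 ± 0.62 (SD, n = 3). This ratio contains the value for which SLC7A11 was taken, so it is a description.

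The subunits of glutamate-cysteine ligase, which sets the rate of glutathione synthesis, did not pass the test. GCLC (ENSG00000001084; chromosome 6, 53497341 to 53616970), the catalytic subunit, was at 4.09, 3.55 and 3.59 FPKM against 4.21, 3.83 and 3.81 FPKM, with a log2 fold change of 0.10 (95% interval −0.10 to 0.30; adjusted p = 0.405 in edgeR). GCLM (ENSG00000023909; chromosome 1, 93885205 to 93909456), the modifier subunit, was at 6.05, 5.28 and 5.28 FPKM against 6.19, 5.77 and 6.53 FPKM, with a log2 fold change of 0.18 (95% interval −0.03 to 0.39; adjusted p = 0.167 in edgeR). The groups overlapped in both genes, and both intervals leave room for a rise and for a small fall. The ratio of GCLM to GCLC in FPKM was 1.48, 1.49 and 1.47 in si-NC samples and 1.47, 1.51 and 1.71 in si-METTL16 samples, a difference of 0.08 on the log2 scale in which only si-METTL16 replicate 3 stood apart.

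GSS, which joins glycine to γ-glutamylcysteine in the last step of synthesis, behaved otherwise. GSS (ENSG00000100983; chromosome 20, 34928433 to 34956027) was at 4.49, 4.05 and 4.60 FPKM in si-NC and at 2.62, 3.04 and 2.94 FPKM in si-METTL16 samples, with no overlap. It fell to 66.4% of the control level (log2 fold change −0.59, 95% interval −0.80 to −0.38; adjusted p = 0.00236, edgeR's quasi-likelihood test). The call held in all 6 fits that left out 1 sample. GSR (ENSG00000104687), the reductase that returns oxidised glutathione to its reduced form, was at 8.52, 7.28 and 7.23 FPKM against 5.23, 5.55 and 5.64 FPKM. GSR fell to 72.4% of control (log2 fold change −0.47, 95% interval −0.68 to −0.25; adjusted p = 0.00754 in edgeR), its groups did not overlap, and its call also held in all 6 such fits.

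GPX4 (ENSG00000167468; chromosome 19, 1103926 to 1106791) was the most abundant of the 10 genes per length in si-NC samples, at 35.2, 32.8 and 35.0 FPKM. It was at 26.5, 27.3 and 28.3 FPKM in si-METTL16 samples, so the groups were separate and the spread within each was small. The log2 fold change was −0.31 (95% interval −0.44 to −0.17; adjusted p = 0.00555, edgeR's quasi-likelihood test), which is 80.9% of control, close to the median size of change over all tested genes. The call of GPX4 held in all 6 fits that left out 1 sample. AIFM2 (ENSG00000042286; chromosome 10, 70098223 to 70132934) was at 4.57, 4.47 and 5.00 FPKM against 3.94, 3.56 and 3.62 FPKM. Its log2 fold change of −0.31 was the same size as that of GPX4 with a wider interval (−0.52 to −0.11; adjusted p = 0.0281 in edgeR). H2AFY2, on the opposite strand, overlaps AIFM2 by 14058 bases with 817 counts over all samples against 3395 for AIFM2, and use of strand in counting is not given in the sources used here.

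ACSL4 (ENSG00000068366; chromosome X, 109624244 to 109733403), whose product primes membranes for peroxidation, was the only gene of the 10 called higher. It was at 22.3, 26.0 and 23.2 FPKM in si-NC and at 28.0, 34.0 and 27.3 FPKM in si-METTL16 samples. Its groups did not overlap, although the highest si-NC sample and the lowest si-METTL16 sample were close. The log2 fold change was 0.34 (95% interval 0.11 to 0.58; adjusted p = 0.0342, edgeR's quasi-likelihood test). Without si-METTL16 replicate 2, the highest sample, it was 0.24 and the call was lost (adjusted p = 0.0775).

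The order of levels per length changed with silencing. In si-NC samples GPX4 was highest, followed by ACSL4, then CHAC1, SLC3A2 and SLC7A11 at mean levels of 15.5, 14.8 and 14.6 FPKM whose ranges overlapped, then GSR, GCLM, AIFM2, GSS and GCLC. AIFM2, GSS and GCLC overlapped their neighbours at 4.68 to 3.74 FPKM. In si-METTL16 samples ACSL4 and GPX4 overlapped at the top with 29.8 and 27.3 FPKM, and SLC3A2 at 13.5 FPKM and GCLM at 6.16 FPKM stood apart below them. GSR, SLC7A11, GCLC, AIFM2, CHAC1 and GSS then ran from 5.47 to 2.87 FPKM, each overlapping the next. CHAC1 thus went from place 3 in mean level to place 9, and SLC7A11 from place 5 to place 6.

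The pathway around the 10 genes was described with 10 further lists of 136 genes, of which 135 were found, 113 were tested and 46 were called, 14 higher and 32 lower. The called share of 40.7% was near the 35.9% of all tested genes. The median log2 fold change of the 113 was −0.08. The counts of each list below stand against the same background of 18.4% called higher and 17.5% called lower. GSTT1 was not analysed here.

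**Figure D3:**
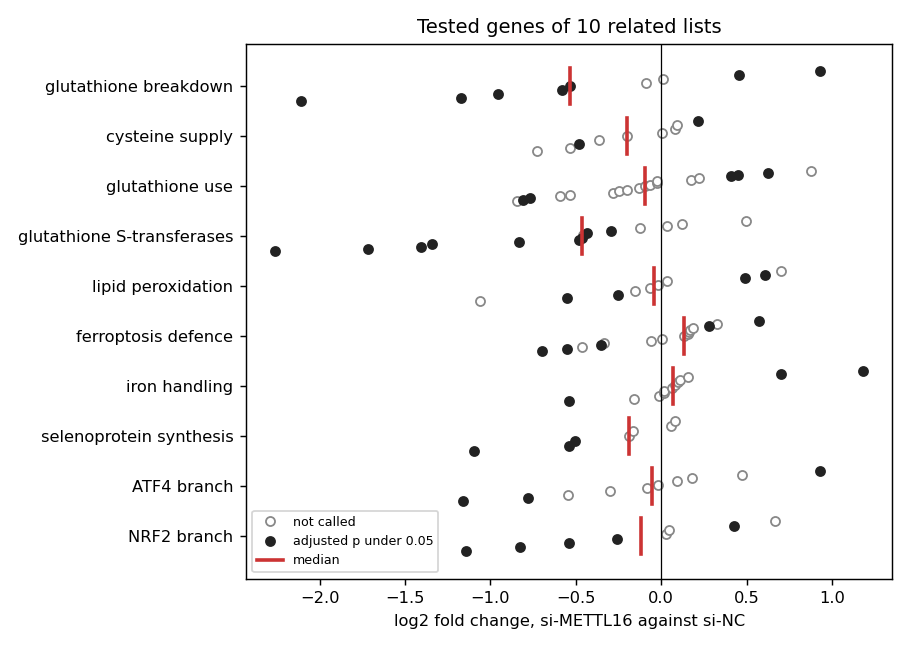
Log2 fold change (horizontal axis) of each tested gene in 10 lists around glutathione and ferroptosis, without the 10 genes themselves. Filled points have an adjusted p under 0.05 in edgeR, open points do not, and the red line is the list's median. The glutathione breakdown and glutathione S-transferase lists have medians of −0.53 and −0.46, and the other medians lie between −0.20 and 0.13.

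In the list of other enzymes of glutathione breakdown and the γ-glutamyl cycle, 7 of 9 tested genes were called, 5 lower and 2 higher. GGT1, the cell-surface γ-glutamyltransferase that opens extracellular glutathione, was at 10.6, 9.13 and 7.70 CPM against 2.44, 2.44 and 1.5 CPM and fell by 2.11 on the log2 scale (adjusted p = 0.000723, edgeR's quasi-likelihood test). GGT1 has near-identical relatives among which reads may be split, so its value is uncertain. OPLAH, the 5-oxoprolinase that recycles the product of CHAC1, fell by 1.17 (13.4, 7.60 and 10.4 CPM against 5.61, 3.91 and 4.39 CPM). LAP3 and CNDP2, peptidases that cleave cysteinylglycine, rose by 0.93 and 0.46. ANPEP, a more abundant aminopeptidase of the same list, fell (log2 fold change −0.53, 727, 731 and 671 CPM against 469, 504 and 501 CPM). LAP3 was at 48.4, 59.5 and 49.2 CPM in si-NC and at 106, 93.8 and 99.4 CPM in si-METTL16 samples.

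The list of other sources and uses of cysteine had 2 of 9 tested genes called. AHCY, which hydrolyses S-adenosylhomocysteine, rose by 0.21, and CSAD, an enzyme of taurine synthesis, fell with a log2 fold change of −0.48. The transsulfuration enzymes, which make cysteine from homocysteine, did not pass the test. For CBS the log2 fold change was −0.20 (adjusted p = 0.432 in edgeR) and for CTH −0.73 (95% interval −1.37 to −0.09; adjusted p = 0.0753 in edgeR). CTH was at 10.2, 7.84 and 14.1 CPM against 8.41, 6.09 and 4.95 CPM, and its groups overlapped.

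Among enzymes that use glutathione, supply its NADPH or move it into mitochondria, 5 of 19 tested genes were called, 3 higher and 2 lower. IDH1, a cytosolic source of NADPH, was at 264, 210 and 263 CPM against 147, 142 and 144 CPM and fell by 0.77 on the log2 scale (adjusted p = 0.00103 in edgeR). SLC25A40, a mitochondrial glutathione carrier, rose by 0.63 and GLRX5, a mitochondrial glutaredoxin, by 0.45.

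The glutathione S-transferases, which conjugate glutathione to electrophiles, had 9 of 14 tested genes called and all 9 were lower. GSTM2 was lowest in log2 fold change (−2.26, 5.80, 7.25 and 5.13 CPM against 1.22, 1.28 and 1.28 CPM), followed by GSTT2 (−1.72). GSTT2 has a near-identical copy, GSTT2B, and the µ class genes resemble each other, so reads may be split among them. GSTP1, an abundant member of another class, was at 370, 393 and 375 CPM against 282, 272 and 289 CPM and also fell (log2 fold change −0.43), as did GSTO1 (−0.29). None of the 14 was called higher, against 18.4% of all tested genes.

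For lipid peroxidation, 4 of 10 tested genes were called, 2 in each direction. LPCAT3, which works after ACSL4 to place polyunsaturated chains into phospholipids, rose by 0.49 (30.4, 35.2 and 35.1 CPM against 38.6, 47.1 and 55.9 CPM; adjusted p = 0.0334, edgeR's quasi-likelihood test). SAT1, a polyamine acetyltransferase, rose by 0.61. AGPS, an enzyme of ether lipid synthesis, fell with a log2 fold change of −0.25, as did CYB5R1, a reductase, with −0.55. The 5 arachidonate lipoxygenases ALOX5, ALOX12, ALOX12B, ALOX15 and ALOX15B had too few counts to be tested.

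Of the other ferroptosis defence genes, 5 of 15 tested were called, 3 lower and 2 higher. SCD, which makes the monounsaturated lipids that resist peroxidation, was at 8013, 10188 and 9612 CPM against 5414, 5706 and 6005 CPM, and fell by 0.70. ACSL3, which activates such fatty acids, fell by 0.55. PDSS1 and PDSS2, which build the coenzyme Q side chain, rose by 0.58 and 0.28. The enzymes GCH1, of tetrahydrobiopterin synthesis, and DHODH, the mitochondrial coenzyme Q reductase, did not pass the test (log2 fold changes 0.19 and 0.16, with intervals of −0.34 to 0.72 and −0.19 to 0.51).

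Iron handling had 3 of 12 tested genes called. TFRC, the transferrin receptor that imports iron, was at 325, 408 and 361 CPM in si-NC and at 833, 840 and 811 CPM in si-METTL16 samples, and it rose by 1.18 on the log2 scale (95% interval 0.98 to 1.38; adjusted p = 0.000162, edgeR's quasi-likelihood test). HMOX1, which releases iron from heme, rose by 0.70, and IREB2, an iron-responsive RNA-binding protein that stabilises the TFRC transcript, fell by 0.54. The ferritin subunits FTH1 and FTL had log2 fold changes of 0.08 and 0.11, with intervals of −0.06 to 0.21 and −0.02 to 0.24, and both have many processed copies that may share reads. The iron exporter SLC40A1 had at most 1 count in any sample.

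The machinery for selenoproteins such as GPX4 had 3 of 7 tested genes called and all 3 were lower. LRP8, a receptor that takes up selenium-carrying SELENOP, was at 54.1, 59.7 and 53.3 CPM against 25.4, 31.1 and 21.7 CPM and fell by 1.10 (adjusted p = 0.00114, edgeR's quasi-likelihood test). SECISBP2 and EEFSEC, which direct selenocysteine insertion at the ribosome, fell with log2 fold changes of −0.54 and −0.50.

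ATF4 and the genes it is known to induce did not move in 1 direction. The stress-response list had 3 of 10 tested genes called, with DDIT4, an mTORC1 inhibitor (log2 fold change −0.78), and NUPR1, a stress-induced nuclear protein (−1.16), lower and PPP1R15A, a phosphatase subunit that restores translation (0.93), higher. ATF4 itself was at 600, 465 and 515 CPM against 571, 558 and 557 CPM, with a log2 fold change of 0.09 (95% interval −0.12 to 0.31; adjusted p = 0.457 in edgeR). For DDIT3, a proapoptotic transcription factor, it was 0.47 (adjusted p = 0.29 in edgeR), and for TRIB3, a pseudokinase, −0.02 with a wide interval of −0.95 to 0.92. TRIB3 was at 82.8, 56.2 and 78.6 CPM in si-NC and at 124, 43.2 and 48.0 CPM in si-METTL16 samples, so si-METTL16 replicate 1 was above and the other two silenced samples were below every si-NC sample. Within the si-METTL16 group replicate 1 was the highest sample for 9 of the 10 genes of the list, all but ATF3, and also for SLC7A11 and SLC3A2. For CHAC1 replicate 1 (21.4 CPM) was just below replicate 3 (21.9 CPM), and replicate 2 was lowest (8.72 CPM). Replicate 2 was also the lowest silenced sample for ATF3, TRIB3, CEBPB, DDIT4 and NUPR1. For the other genes of the list, and for SLC7A11, the lowest was replicate 3.

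**Figure D4:**
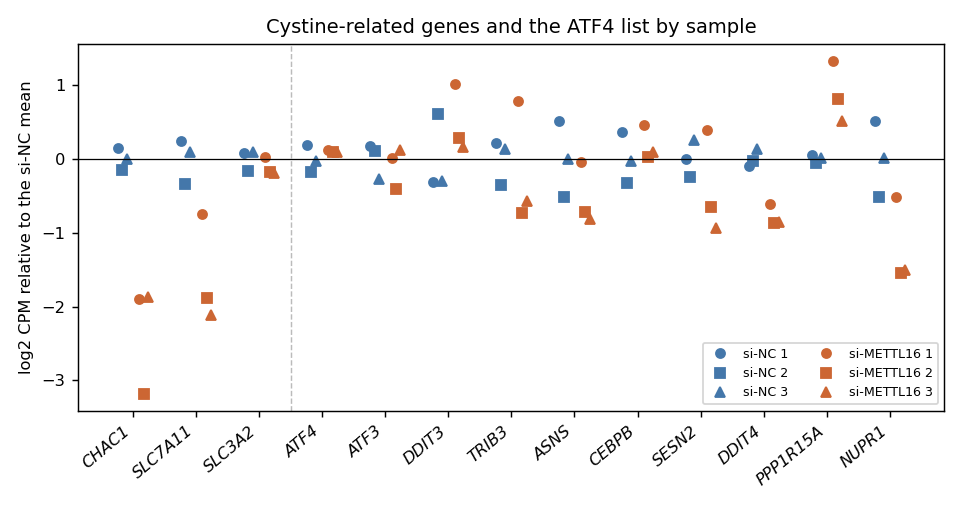
Log2 CPM of each sample minus the mean of the 3 si-NC samples (vertical axis) for CHAC1, SLC7A11 and SLC3A2, left of the dashed line, and for the 10 genes of the ATF4 list. Blue is si-NC, orange is si-METTL16 and marker shapes are replicate numbers. CHAC1 lies between −3.19 and −1.87 in the si-METTL16 samples while ATF4 lies between 0.09 and 0.12.

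In the NRF2 list, which holds regulators as well as targets, 5 of 8 tested genes were called, 4 lower and 1 higher. BACH1, a regulator and not counted here as a target, was among the 4 lower (log2 fold change −0.54). The count is therefore not a count of NRF2 targets. SLC48A1, a heme transporter (log2 fold change −1.14), and OSGIN1, a growth regulator (−0.83), were lowest. NQO1, a quinone reductase and a common NRF2 marker, fell by 0.26, and TXN, thioredoxin, rose by 0.43. NFE2L2, which encodes NRF2, had a log2 fold change of 0.67 that did not pass the test (95% interval 0.00 to 1.33; adjusted p = 0.107 in edgeR) and ranged from 70.1 to 135 CPM in si-NC and from 117 to 185 CPM in si-METTL16 samples. KEAP1, its inhibitor, had a log2 fold change of 0.05 (95% interval −0.30 to 0.40).

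The 5 genes whose log2 CPM over the 6 samples was most like that of CHAC1, among 7398 genes searched, were ZMAT3, EDF1, AMMECR1, SLC25A23 and GPRC5C, with Pearson r from 0.992 to 0.996. The genes searched were the 7545 tested genes at or above the median level, without CHAC1 and without 146 whose names are accessions or are not plain capital symbols. The 6 points fall in 2 groups, so r largely restates the difference between them, and it is given as a description. ZMAT3 was at 91.5, 84.2 and 94.9 CPM against 44.2, 31.0 and 45.7 CPM, with the same lowest sample as CHAC1. EDF1 had nearly the same pattern at a small scale, from 160 to 162 CPM in si-NC and from 146 to 152 CPM in si-METTL16 samples. SLC7A11, which was among the genes searched, had an r of 0.877 and rank 1039.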

How the data were processed

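RNA-seq of 6 PANC-1 samples was used. The authors deposited, for each of 58735 genes, raw counts that were not normalized and FPKM values, which are those counts divided by gene length and total count; the length implied by both differed between samples by at most 0.00087%. The submitters' processing notes name HISAT2 2.0.4 and StringTie 1.3.0 and the GRCh38 build. The annotation release and use of strand are not given in the sources used here. Symbols that had turned into dates (27) were counted and left unchanged.

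Groups and replicate numbers came from sample titles. Counts were filtered with filterByExpr (minimum count 10, minimum total 15), scaled by TMM and fitted in edgeR 4.0.16 (R 4.3.3; glmQLFit, glmQLFTest). P-values were adjusted by Benjamini-Hochberg over all 15089 tested genes, with a threshold of 0.05. The common biological coefficient of variation was 16.5%. CPM are TMM-scaled, and 95% intervals came from the fold change, its F statistic and the total degrees of freedom. A test on counts replaced the limma comparison of the study because raw counts were available. Alternatives were DESeq2 1.42.0, limma 3.58.1 on voom and log2(FPKM + pseudocount) values, other filters, a replicate block, a stricter threshold and leaving out each sample. Scripts were tested on simulated data.

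The 10 genes and all lists were chosen with earlier results of these data known. Genes named from a list were the called genes with the 2 highest and 2 lowest log2 fold changes, or fewer of these, beside a fixed set (CHAC2, CTH, CBS, ATF4, DDIT3, TRIB3, NFE2L2, KEAP1, LPCAT3, TFRC, FTH1, FTL, SLC40A1, HMOX1, GCH1 and DHODH). ANPEP, ASNS, ATF3, BACH1, CEBPB, SESN2, GSTT2B, MGST1 and the lipoxygenases, and the marker genes, were named after their values were seen. A gene that this rule names is not reported here. Coordinates are those of the deposited table, and GENCODE v44 gives 4 of the 10 genes identical ends. Promoter windows came from RefSeq. Precision is limited by 3 samples a group, and intervals and the floor of 3 counts cover no culture-to-culture error beyond these samples. The other experiments of the study were not analysed here.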

Additional observations from a re-analysis of the deposited data

How the results depend on the processing

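Up to 15 alternatives were run for each value, and CHAC1, SLC7A11 and the subunit ratios entered as values with no test. Of the values obtained, 200 kept their direction and side of the threshold or moved little, 10 counts moved by over 1.5 times, 15 single-gene calls were lost and 0 reversed. At an adjusted p under 0.01 (edgeR), 3035 genes were called in all, 4 of the 10 genes with CHAC1 and SLC7A11 counted, 3 of the 8 without CHAC1 and SLC7A11, and 29 list genes. With no filter on low genes 3 of those 8 were called. The count of the 8, which was added after seeing the data, was 3 to 5 in the fits that left out 1 sample, the count of the 10 from 4 to 7 (4 without si-NC replicate 1 and 4 without si-METTL16 replicate 2), the list genes from 36 to 47 and all genes from 4159 to 4526. The counts of the 10 include the pair taken for its fall and support nothing.

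The calls of ACSL4 and AIFM2 were the ones lost. ACSL4 had a log2 fold change between 0.24 and 0.41 with each sample left out, of 0.34 with no filter (adjusted p = 0.0594) or against a threshold of 0.01 (0.0342), of 0.31 with limma on log2(FPKM + 1) (0.0506) and of 0.32 with log2(FPKM + 0.1) (0.0513). AIFM2 was between −0.37 and −0.27 with each sample left out, and at −0.32 with no filter (adjusted p = 0.0551) and −0.31 against a threshold of 0.01 (0.0281). GSS, GSR and GPX4 kept their calls under every alternative run at the threshold of 0.05. The threshold of 0.01 was applied only to the main fit, where they also kept their calls. With the replicate block their adjusted p were 0.0107, 0.0241 and 0.0161 (edgeR's quasi-likelihood test), all above 0.01. The causes were not tested.

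The groups share replicate numbers. Deviations of same-numbered samples correlated at 0.025, 0.037 and 0.030 across genes. Each sample correlated best with its own number, but the correlations were weak and the numbers were not taken as pairs. With the replicate block 5013 genes were called, 4731 of them shared with the comparison without it, and AIFM2 had a log2 fold change of −0.31 that lost its call (adjusted p = 0.0552); the block changed no other call among the 8 genes. Depth limits the low genes, such as GSTM2 and GSTT2 at about 1 CPM in silenced samples.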
